A study of Homo sapiens with 6 samples.

Results

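Of the 63677 genes counted in this RNA-Seq experiment, 239 lay on chromosome 19 and carried a symbol made of ZNF and a number, and these zinc finger genes are the subject here. The rule uses chromosome and name. The cells were RPMI8226, an established human multiple myeloma (MM) line of wild-type genotype. They were exposed for 6 h to 100 nM GST-PTR1, the PTR1 domain of the matrix link protein HAPLN1 fused to glutathione-S-transferase (GST), or to 100 nM GST alone as negative control, in 3 biological replicates each. The purpose of the experiment was to profile transcription after HAPLN1-PTR1 exposure, against the background of NF-κB signaling and drug resistance in MM. It used 1 cell line, 1 dose and 1 time point, and a recombinant protein in place of the stromal cells that make HAPLN1.

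Zinc finger genes of this class encode proteins built from tandem C2H2 fingers, short loops in which paired cysteines and histidines hold a zinc ion and the loop reads DNA bases. Many of those on chromosome 19 also carry a KRAB domain, which binds the corepressor TRIM28 and through it the histone methyltransferase SETDB1, HP1 proteins and histone deacetylases, so that the bound chromatin is silenced. The genes arose by repeated tandem duplication, lie in dense clusters, and are best known for repressing transposable elements.

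The libraries held 15.2 to 23.5 M gene counts with GST and 22.9 to 44.7 M with GST-PTR1. Levels are given as CPM, counts scaled to a common library size after TMM, a correction for composition, and are listed in order of library depth within each group. Of the 9 plasma cell markers 7 exceeded 10 CPM in every library, and all 9 summed to 4076 to 4786 CPM with GST and 3956 to 4906 CPM with GST-PTR1. Single markers moved in both directions under that sum. SDC1, the surface marker CD138, was at 318 to 432 CPM with GST and 168 to 200 CPM with GST-PTR1, and TNFRSF17, the receptor BCMA, at 25.9 to 32.9 and 8.098 to 13.8 CPM. The plasma cell transcription factors PRDM1 and IRF4 were at 54.8 to 67.9 and 137 to 160 CPM and at 269 to 280 and 407 to 457 CPM, and SLAMF7 at 5.07 to 5.95 and 13.4 to 18.5 CPM. XBP1, which drives the secretory program, was at 362 to 440 and 272 to 315 CPM. None of these 6 overlapped between the groups, whereas CD38, MZB1 and JCHAIN did. Over all genes tested, 19.2% lay entirely higher with GST-PTR1 and 21.2% entirely lower. The part of these markers in the results on zinc finger genes was not tested. The 3 T cell, 3 monocyte and 3 stromal markers were all under 1 CPM in every library. The epithelial list summed to 68.9 to 80.7 CPM with GST and 65.3 to 72.5 CPM with GST-PTR1, nearly all of it EPCAM.

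As a group the chromosome 19 ZNF genes moved little. Of the 239, 3 had no count in any library, 27 had too few counts to test, and 209 were tested among 16926 genes. GST-PTR1 exposure raised 4 of the 209 (1.91%) and lowered 17 (8.13%) at an adjusted p under 0.05, and 188 did not pass. Over all genes tested, 9.15% were called higher and 11.4% lower. The members' call rate was thus below the background in both directions, and their median mean level was also lower, 6.60 CPM against 15.1 CPM over all genes tested; the part of level in the call rate was not tested.

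The members' log2 fold changes were nevertheless shifted slightly downward. Their median was -0.10 on the log2 scale, with quartiles of -0.30 and 0.09, against a median of 0.01 over all genes. A negative value was found for 137 of the 209 (65.6%), compared with 49.3% of all genes. Without the GST library of 20.1 M counts the member median was -0.048. The 3 GST-PTR1 libraries lay entirely below the 3 GST libraries for 49 members (23.4%, background 21.2%) and entirely above for 19 (9.09%, background 19.2%). Scaling by library totals in place of TMM moved the median of all genes to -0.19 and that of the members to -0.30, and then 2 members were called higher (background 5.48%) and 43 lower (background 22.4%). The TMM factors were 1.05 to 1.10 with GST and 0.883 to 0.975 with GST-PTR1.

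The 194 tested ZNF genes of other chromosomes had a median of -0.13, with 9 called higher and 30 lower (4.64% and 15.5%). The 847 other tested genes of chromosome 19 had a median of -0.02, with 72 called higher and 91 lower. Another 12 tested zinc finger genes of chromosome 19 outside the naming rule had a median of -0.02. The downward shift was therefore seen at a similar size in ZNF genes elsewhere in the genome. No test of the differences between these groups was made.

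The summed level of the 239 genes did not separate the groups. It was 1959, 2040 and 1977 CPM with GST and 2006, 2129 and 2030 CPM with GST-PTR1, and the ranges overlapped. The means were 1992 ± 42.5 CPM and 2055 ± 65.3 CPM (SD, n = 3 each). The mean was 3.15% higher with GST-PTR1. Without the 4 members called higher it was lower, at 1929 ± 38.2 CPM and 1879 ± 53.4 CPM, and the groups overlapped again. As a plain share of all counts, without TMM, the members took 0.213% ± 0.00247 with GST and 0.192% ± 0.0116 with GST-PTR1, and here the groups did not overlap. The direction of the summed level therefore depended on the scaling.

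The 4 members that rose were neighbors. ZNF101, ZNF506, ZNF253 and ZNF93 lie within 266.78 kb of the short arm (GRCh37 chr19:19779605-20046384), and in chromosome order they were among the 34th to 38th of the 209 tested members. Of the 4, ZNF253 and ZNF506 rose by at least 2-fold.

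ZNF253 (ENSG00000256771, chr19:19976695-20005483, plus strand) showed the largest fold change of any member. Its level was 10.6, 13.98 and 13.2 CPM with GST and 66.2, 88.9 and 84.3 CPM with GST-PTR1. Every exposed library was several times every control library, and the raw counts of 176, 295 and 329 against 1475, 2427 and 3323 left little counting error. The log2 fold change was 2.66 (SE 0.15, adjusted p = 5.22e-07), a 6.32-fold increase. Per kb of exon, ZNF253 went from 3.47 ± 0.49 to 22.0 ± 3.31 CPM (SD, n = 3 each). Its share of all member CPM was 0.540% to 0.685% in the control libraries and 3.30% to 4.18% in the exposed libraries.

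ZNF506 (ENSG00000081665, chr19:19896648-19932560, minus strand) followed. It stood at 12.08, 12.04 and 10.75 CPM with GST and 35.2, 46.3 and 41.6 CPM with GST-PTR1. The groups were far apart, with a log2 fold change of 1.82 (SE 0.13, adjusted p = 3.57e-06), or 3.54-fold. ZNF506 and ZNF253 are transcribed away from each other, and their annotated 5′ ends are separated by 44.1 kb.

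ZNF101 (ENSG00000181896, chr19:19779605-19794318, plus strand) rose by less but with very tight replicates. It was at 20.5, 21.04 and 20.98 CPM with GST and 28.6, 27.2 and 29.4 CPM with GST-PTR1, which did not overlap. The log2 fold change was 0.45 (SE 0.11, adjusted p = 0.0130), or 1.36-fold. ZNF93 (ENSG00000184635, chr19:20011722-20046384, plus strand) encodes a KRAB protein known for repressing LINE retrotransposons. It lies 6.24 kb beyond the end of ZNF253. It was at 14.97, 20.2 and 17.9 CPM with GST and 23.3, 25.9 and 30.05 CPM with GST-PTR1. The lowest exposed library was only slightly above the highest control library, and the log2 fold change was 0.58 (SE 0.14, adjusted p = 0.0164), or 1.49-fold. With library totals ZNF101 (0.25, adjusted p = 0.135) and ZNF93 (0.38, adjusted p = 0.055) were no longer called, whereas ZNF253 and ZNF506 were called under each of the 16 alternative fits. ZNF93 also lost its call without the GST library of 23.5 M counts or without the GST-PTR1 library of 44.7 M counts.

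**Figure D1:**
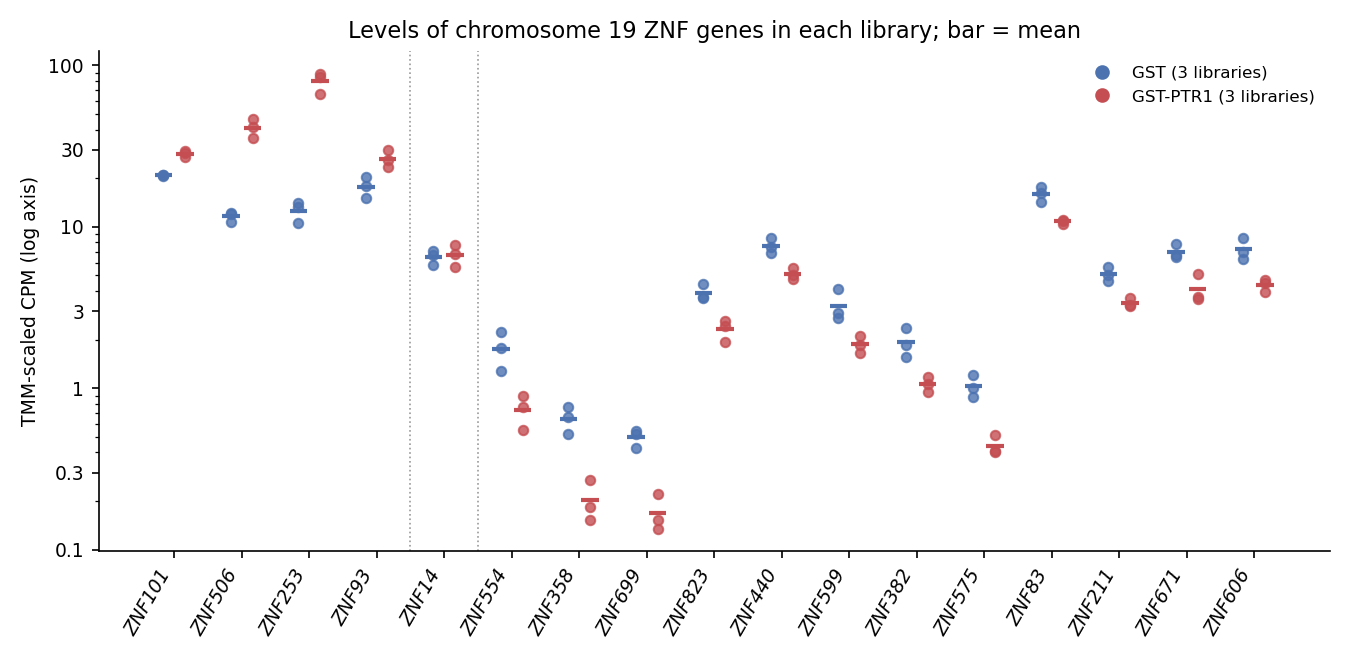
TMM-scaled CPM (log axis) in each of the 3 GST (blue) and 3 GST-PTR1 (red) libraries, with the mean as a bar, for the 4 members called higher, their neighbor ZNF14, and the 12 members called lower with the smallest adjusted p, each set in chromosome order. ZNF253 and ZNF506 stand well apart between the groups, ZNF14 overlaps, and the lower members with the widest gaps, such as ZNF358 and ZNF699, are those at under 1 CPM.

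ZNF14 was the 1 member in the stretch that was not called. It was at 5.77, 7.06 and 6.70 CPM with GST and 5.66, 7.66 and 6.80 CPM with GST-PTR1. The groups overlapped, with a log2 fold change of 0.04 (SE 0.17, adjusted p = 0.877). Its sign changed under some of the alternative fits. ZNF14 lies between ZNF101 and ZNF506, so the rise was not continuous along the stretch.

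Some non-member genes of the stretch rose as well. The stretch was bounded by the outermost members called higher, so the 4 members called lie inside it by construction. Of 8 genes tested there, those 4 included, 6 were called higher and none lower. Over all genes tested, 9.15% were called higher and 11.4% lower. LINC00663, a long noncoding RNA on the minus strand, had 9, 13 and 10 counts with GST and 33, 34 and 41 with GST-PTR1 (log2 fold change 1.26, SE 0.30, adjusted p = 0.0129). ENSG00000267481 lies inside the span of ZNF506 on the same strand and had 7, 5 and 14 counts with GST and 57, 105 and 122 with GST-PTR1 (log2 fold change 2.93, SE 0.31, adjusted p = 7.71e-05). Both were low but separated completely. Reads from unspliced ZNF506 transcripts could be assigned to ENSG00000267481, and the 2 sources cannot be told apart in gene counts. The pseudogene ZNF56P, on the opposite strand to ZNF506, gave -0.65 (SE 0.36, adjusted p = 0.222).

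Within 1 Mb on either side of the stretch, 32 genes were tested, none was called higher and 2 were called lower. Because the stretch ends at the outermost members called higher, no such member could lie in these flanks. The log2 fold changes of the 32 genes ran from -0.99 to 0.52 with a median of 0.02. On the side away from the centromere the nearest tested gene, ATP13A1, was at -0.02 (adjusted p = 0.934). On the other side the next members, ZNF682 at -0.44 (adjusted p = 0.2998) and ZNF90 at -0.26 (adjusted p = 0.301), did not pass the test. Farther along that side, the member ZNF737 had the highest value of the flanks, 0.52 (SE 0.18, adjusted p = 0.0627). It was not called, but its GST-PTR1 libraries all lay above its GST libraries. Some flanking genes had too few counts to test. Among them PBX4 had 5, 2 and 4 counts with GST and 16, 14 and 15 with GST-PTR1. NCAN went the other way, with 1, 2 and 3 counts with GST and 0 in each GST-PTR1 library.

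**Figure D2:**
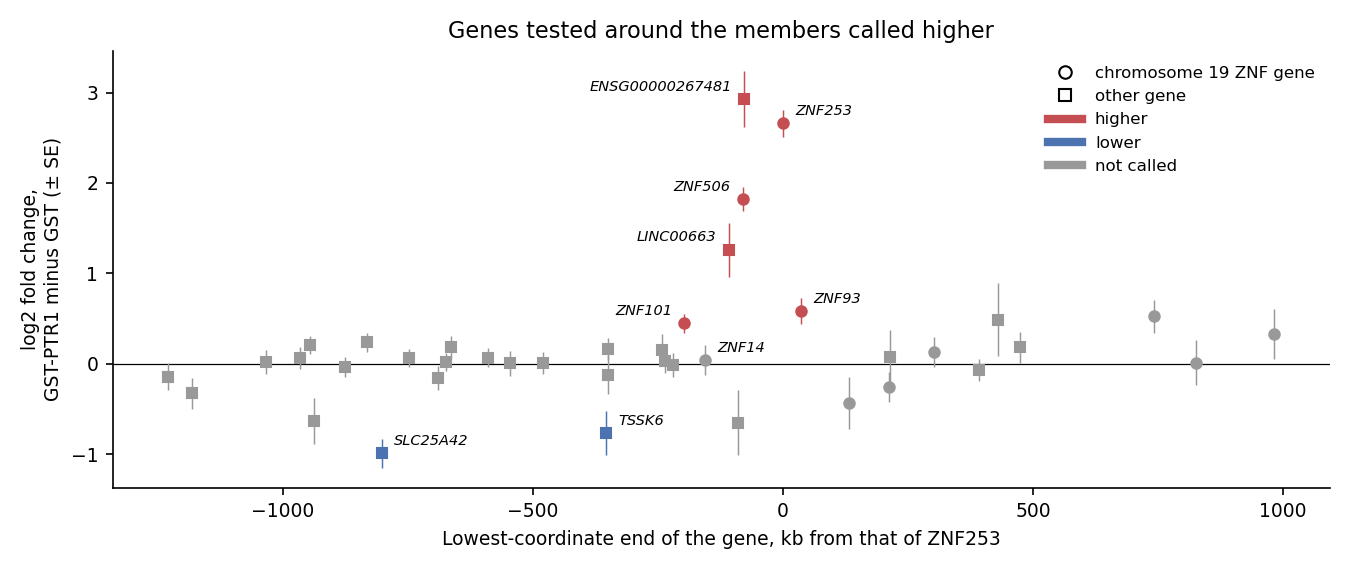
Log2 fold change with GST-PTR1 (± SE) of every gene tested within 1 Mb of the stretch from ZNF101 to ZNF93, against the distance in kb of its lowest-coordinate end from that of ZNF253. The 6 red points are the genes called higher, and all lie from ZNF101 to ZNF93. These 2 are the outermost members called higher and set the bounds of the stretch. The 32 flanking genes run from -0.99 to 0.52.

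Upstream sequences were taken from RefSeq promoters (GRCh38.p14), in which 208 of the 239 members were matched, ZNF101, ZNF93 and ZNF14 among them and ZNF253 and ZNF506 not. The 120 bases before the start of ZNF101 and ZNF93, which rose, and of ZNF14, which lies between the rising genes and was not called, are shown 5′ to 3′ on the strand of the gene so that they can be compared. Capitals mark the GC box GGGCGG, searched on both strands, a motif bound by Sp-family factors. The positions are chr19:19668719-19668838 (plus) for ZNF101, chr19:19900826-19900945 (plus) for ZNF93 and chr19:19733113-19733232 (minus) for ZNF14.
ZNF101: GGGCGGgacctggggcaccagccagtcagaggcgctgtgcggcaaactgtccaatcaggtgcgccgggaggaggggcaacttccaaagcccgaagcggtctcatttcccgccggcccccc
ZNF93: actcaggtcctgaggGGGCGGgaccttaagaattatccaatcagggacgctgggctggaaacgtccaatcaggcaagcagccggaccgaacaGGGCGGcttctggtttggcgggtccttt
ZNF14: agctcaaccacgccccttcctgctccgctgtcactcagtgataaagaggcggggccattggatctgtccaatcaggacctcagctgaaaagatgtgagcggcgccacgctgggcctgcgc
The exact string GGGCGG was present upstream of ZNF101 and ZNF93 and was not found for ZNF14. Near matches to it were not counted. The CCAAT box, the motif of the factor NF-Y, occurred in all 3. ZNF253 and ZNF506, with the largest rises, could not be compared. The GC box was also in the promoters of all 14 lower members with a sequence, so its presence was not particular to members that rose.

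Over the 300-base promoters, which run from 250 bases before to 50 after the start, several motifs were counted. The CCAAT motif, read on both strands, was in 52.9% of member promoters, in 37.3% of the promoters of genes tested and in 35.7% of all promoters. The motif CCGGAAG, recognized by ETS-family factors, was in 44.7% of member promoters, against 20.02% and 10.7%. The GC box was in 69.7%, against 69.1% and 44.6%, and TATAAA was in 1.92%, against 5.79% and 11.95%. A match to the NF-κB consensus was in 5.77% of member promoters, against 13.1% for genes tested and 10.8% for all promoters. These are matches of letters, and no binding was measured. Of the 14 lower members with a promoter sequence all 14 held a GC box and 4 held CCGGAAG, and 2 held the NF-κB consensus. Of the 2 higher members with a promoter sequence, 1 held the NF-κB consensus, ZNF101, where the match lies after the start and so outside the bases shown. Among the 170 members tested and not called, 65.3% held a GC box and 49.4% held CCGGAAG. No motif contains another, and no test of these shares was made.

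The members that fell were spread along the chromosome and mostly changed by less than 2-fold. Of the 17, 9 were on the short arm and 8 on the long arm, and 4 fell by at least 2-fold. Those 4 were among the least expressed members.

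ZNF358 (ENSG00000198816, chr19:7580178-7585912, plus strand) had the steepest decrease. It was at 0.661, 0.521 and 0.762 CPM with GST and 0.269, 0.183 and 0.152 CPM with GST-PTR1. The groups did not overlap, but the counts behind them were 11, 11 and 19 against 6, 5 and 6. The log2 fold change was -1.73 (SE 0.38, adjusted p = 0.00867), and 20.2% of its exon bases are shared with another gene on its strand, where reads were not counted. ZNF699 (ENSG00000196110, chr19:9404951-9420514, minus strand), the human counterpart of the Drosophila gene hangover, was at 0.541, 0.426 and 0.522 CPM with GST and 0.135, 0.220 and 0.152 CPM with GST-PTR1. Its counts were 9, 9 and 13 against 3, 6 and 6, and it separated fully with a log2 fold change of -1.52 (SE 0.39, adjusted p = 0.0190). Its call was lost with the DESeq2 test (adjusted p = 0.0808), in 4 of the 6 fits that left out 1 library and in both fits of 4 libraries. Both genes had under 20 counts in every library.

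ZNF554 (ENSG00000172006, chr19:2819872-2835771, plus strand) was at 2.22, 1.28 and 1.77 CPM with GST and 0.763, 0.550 and 0.888 CPM with GST-PTR1. Control libraries were all higher, and the log2 fold change was -1.22 (SE 0.29, adjusted p = 0.0140). ZNF575 (ENSG00000176472, chr19:44029649-44040282, plus strand) was at 1.20, 0.995 and 0.883 CPM with GST and 0.404, 0.513 and 0.406 CPM with GST-PTR1. Here too no exposed library reached a control library, and the log2 fold change was -1.20 (SE 0.29, adjusted p = 0.0147).

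Better covered members fell by less. ZNF83 (ENSG00000167766, chr19:53097313-53193749, minus strand) had the most counts of the 17, with 17.6, 14.2 and 16.2 CPM with GST and 10.5, 10.96 and 10.9 CPM with GST-PTR1. The exposed libraries were nearly identical and below every control. The log2 fold change was -0.57 (SE 0.13, adjusted p = 0.00970). ZNF606 (ENSG00000166704) was at 8.48, 6.35 and 6.98 CPM with GST and 4.49, 4.69 and 3.96 CPM with GST-PTR1. It too was separated in all libraries, with a log2 fold change of -0.73 (SE 0.17, adjusted p = 0.0116). ZNF83 and ZNF606 were the 2 lower members that were called in each of the 16 alternative fits.

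ZNF671, a gene often silenced by methylation in tumors, fell by 0.76 on the log2 scale (SE 0.19, adjusted p = 0.0157), from 7.81, 6.63 and 6.5 CPM to 3.55, 5.13 and 3.65 CPM. One exposed library, that of 28.8 M counts, was nearer to the controls than the others. ZNF823 fell by 0.75 (adjusted p = 0.0207), from 3.67, 4.41 and 3.61 CPM to 2.60, 1.94 and 2.41 CPM. ZNF440 fell by 0.59 (adjusted p = 0.0223), from 7.51, 6.87 and 8.51 CPM to 4.71, 5.53 and 5.00 CPM. In both, all exposed libraries were below all controls.

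ZNF211 fell by 0.59 (adjusted p = 0.0314), from 4.99, 5.64 and 4.61 CPM to 3.28, 3.22 and 3.604 CPM. ZNF599 fell by 0.77 (adjusted p = 0.0326), from 4.09, 2.70 and 2.93 CPM to 1.84, 1.65 and 2.11 CPM, and its control library of 15.2 M counts was the highest. ZNF382, which encodes a KRAB repressor described as a tumor suppressor, fell by 0.83 (adjusted p = 0.0337), from 2.34, 1.56 and 1.85 CPM to 0.943, 1.06 and 1.17 CPM. Each of these was separated between the groups and each lost its call in 6 to 8 of the 16 alternative fits. The other 5 lower members, given here after their values were seen, were ZNF726, ZNF443, ZNF738, ZNF729 and ZNF836, with log2 fold changes of -0.50, -0.58, -0.49, -0.67 and -0.78 and adjusted p between 0.0348 and 0.0492.

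The calls of lower members depended on single libraries. Against 17 with all 6 libraries, 13 members were called lower without the GST library of 15.2 M counts (background 8.42%), 11 without that of 20.1 M counts (9.93%) and 6 without that of 23.5 M counts (7.16%). Leaving out the GST-PTR1 library of 22.9, 28.8 or 44.7 M counts left 7, 8 and 6 (backgrounds 10.5%, 6.77% and 6.97%). Calls over all genes also fell in each of these fits, from 11.4%. ZNF83 and ZNF606 were called in each of these fits, whereas ZNF211 was called in none of them. Among these fits, ZNF671 and ZNF575 lost their call only without the GST-PTR1 library of 44.7 M counts. ZNF358 lost it without that library or the GST library of 23.5 M counts, as ZNF554 did without the latter or the GST-PTR1 library of 28.8 M counts. ZNF823 lost it without the GST library of 20.1 or 23.5 M counts or the GST-PTR1 library of 28.8 M counts, with adjusted p from 0.0506 to 0.08999. ZNF440 lost it without the GST library of 23.5 M counts (adjusted p = 0.1004) or the GST-PTR1 library of 22.9 or 44.7 M counts. LINC00663 also lost its call without the GST library of 23.5 M counts. No lower member changed sign in any alternative fit.

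Grouped by gaps of more than 1 Mb between neighbors, the 239 members formed 16 clusters. The 7 clusters of at least 10 members held 220 of them, and the cluster medians ran from -0.33 to -0.06. All 7 of these medians were negative, that of the cluster with ZNF253 included. The members called higher were in 1 cluster and those called lower in 9. The single cluster depended on the fit, since members called higher lay in 2 clusters with DESeq2 size factors, in 3 with the DESeq2 test or a filter of 1 count in any library, and in 4 with the exon length or GC trend removed.

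The lowest large-cluster median, -0.33, belonged to ZNF653 to ZNF791 on the short arm (chr19:11594242-12750912), where 12 of 14 tested members were negative and ZNF823, ZNF440 and ZNF443 were called lower. The 10 other genes tested within those bounds had a median of 0.13, with none called. The small cluster at the short-arm end, ZNF554 to ZNF77, had 5 of 5 members negative, with a median of -0.37 and ZNF554 alone called. The cluster holding ZNF253 ran from ZNF101 to ZNF254 (chr19:19779605-24312654), with 37 members of which 35 were tested, 4 higher and 3 lower, and a median of -0.07. Beyond ZNF93 no member of that cluster was called higher, but 1 other gene was, the ribosomal protein pseudogene RPL34P34. It lies 2.51 Mb beyond ZNF93 and had 27, 44 and 40 counts with GST and 56, 79 and 125 with GST-PTR1 (log2 fold change 0.70, SE 0.21, adjusted p = 0.0383). ZNF91, whose product represses SVA elements, was at 0.08 (adjusted p = 0.609) there.

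On the long arm the largest cluster, ZNF628 to ZNF446 (chr19:55987699-58992597), had 52 members tested, 3 called lower and a median of -0.06. The cluster ZNF175 to ZNF331 had 37 tested, 2 lower and a median of -0.07. The short arm as a whole had 68 tested members with 4 higher, 9 lower and a median of -0.14. The long arm had 141 with none higher, 8 lower and a median of -0.08. All 4 higher members were those from ZNF101 to ZNF93. Over all genes tested, 9.15% were called higher and 11.4% lower, and no test between the arms was made. Across the 209 members the rank correlation of log2 fold change with position was weak (Spearman's rho 0.09, Pearson's r 0.08, described across genes of the same 6 libraries, which are not independent replicates).

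**Figure D3:**
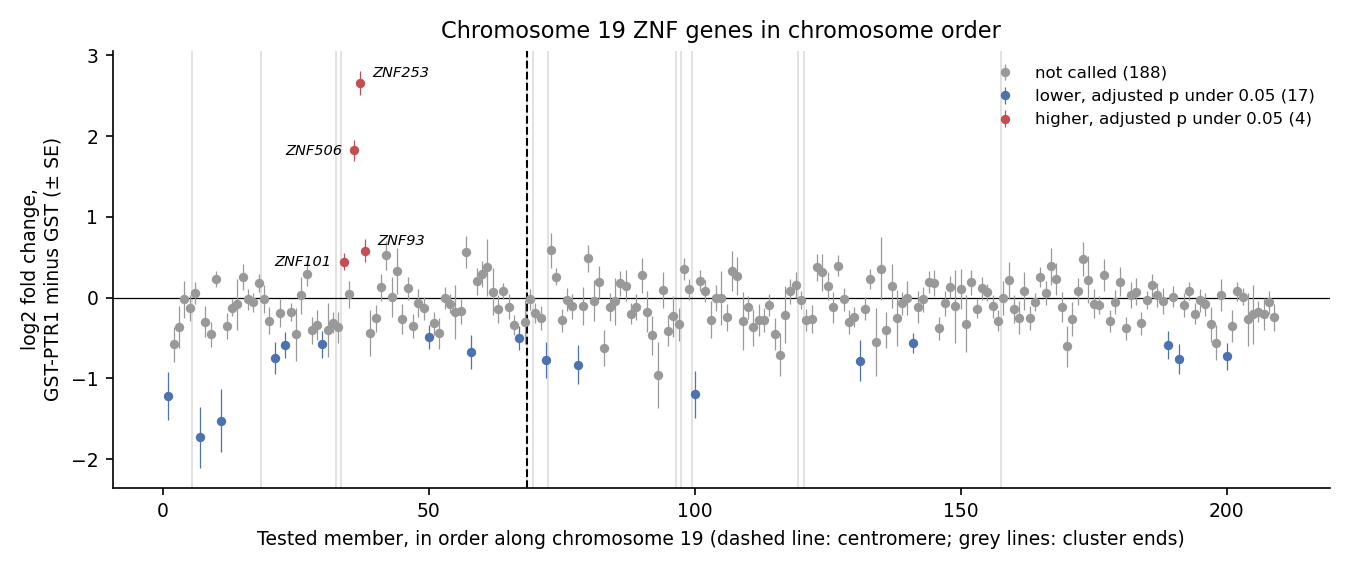
Log2 fold change with GST-PTR1 (± SE) of the 209 tested members in their order along chromosome 19, with grey lines between clusters and a dashed line at the centromere. The 4 members called higher (red) sit together as 34th to 38th in order, while the 17 called lower (blue) are scattered over both arms.

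Calls differed with level. In terciles of mean GST level, the lowest (0.455 to 3.91 CPM) had 9 members called lower and none higher, the middle one 7 lower and none higher, and the top one (10.2 to 89.1 CPM) 1 lower and 4 higher. Median log2 fold change was -0.22 in the lowest, -0.11 in the middle and -0.03 in the top tercile. Spearman's rho between log2 fold change and log2 mean CPM was 0.30 over the members and 0.24 over all other genes tested. The part of counting depth in this was not tested.

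Apart from ZNF253, the most abundant members per kb of exon were not called. ZNF146, a protein made almost only of fingers, led with 21.5 ± 1.88 CPM per kb with GST and 25.8 ± 0.27 with GST-PTR1 (SD, n = 3 each). Its libraries did not overlap, but its log2 fold change of 0.26 (SE 0.10) had an adjusted p of 0.0885. ZNF580 was at 17.9 ± 3.31 and 15.03 ± 1.61 CPM per kb, ZNF581 at 11.4 ± 0.11 and 10.98 ± 0.28, and ZNF121 at 10.2 ± 1.27 and 10.1 ± 1.18. The log2 fold changes of the last 3 were -0.25, -0.06 and -0.02, none called. With ZNF253, they made up the 5 members above 10 CPM per kb, and the median tested member was at 1.35 CPM per kb against 4.37 for all genes tested. After exposure ZNF253, at 22.0 CPM per kb, ranked after ZNF146 alone.

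**Figure D4:**
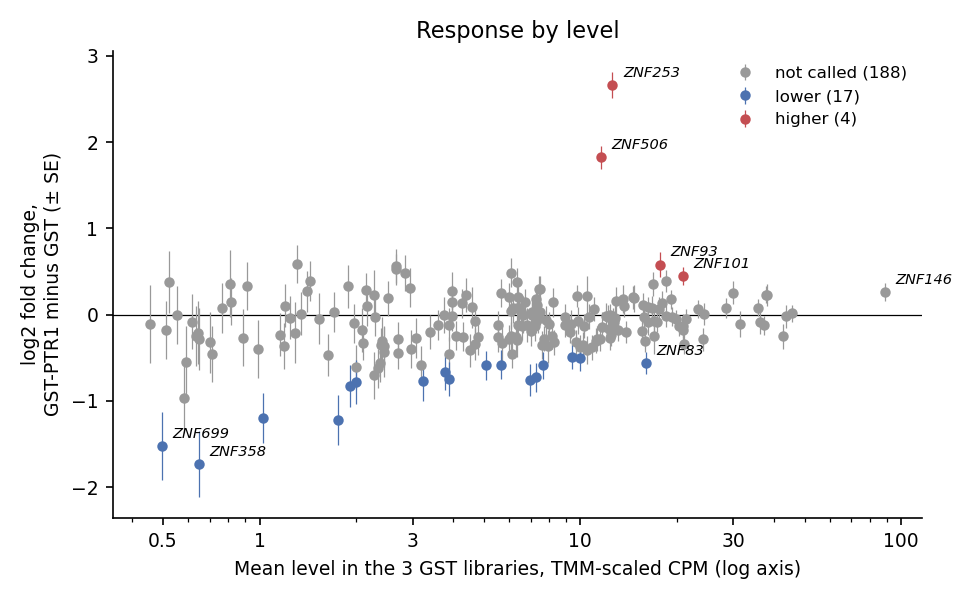
Log2 fold change with GST-PTR1 (± SE) against the mean level in the 3 GST libraries (TMM-scaled CPM, log axis) for the 209 tested members. The 17 members called lower (blue) lie mostly below 10 CPM, and 16 of the 17 fall in the lower 2 terciles of level. The 4 called higher (red) lie above 10 CPM.

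Gene length was examined by plan, and fold changes varied with length across the whole transcriptome. Over all other genes tested, the median log2 fold change fell from 0.21 in the shortest quintile of exon length to 0.02, -0.01, -0.06 and -0.08 in the following quintiles. Members were long, with a median of 4723 exon bases (1360 to 12600) against 3665, and none was in the shortest quintile, where genes are at most 1283 bases. In quintiles 2 to 5, with 24, 70, 76 and 39 tested members, the member medians were -0.02, -0.06, -0.12 and -0.12. Within a quintile the member median was below that of the other genes by 0.04 to 0.06. Spearman's rho with exon length was -0.15 in the members and -0.20 in the others, and with genomic span it was -0.02 and -0.18. Without the GST library of 20.1 M counts the member value for exon length was -0.088.

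Few members were called in any quintile of length. From quintile 2 to quintile 5, 3 of 24, 7 of 70, 5 of 76 and 2 of 39 were called lower (12.5%, 10%, 6.58% and 5.13%), while among other genes the shares were 11.4%, 13.4%, 14.4% and 14.9%. No test of these shares was made. With the exon length trend taken out of each library, 7 members were called higher (background 10.3%) and 16 lower (background 12.5%), and the median was -0.06. With the trend of GC content taken out instead, 7 were higher (background 9.81%) and 26 lower (background 13.5%), with a median of -0.16. The 4 members called higher with TMM alone were among the 7 in both. The GC correction was chosen after seeing the data.

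The longest tested members, ZNF814 (12600 exon bases), ZNF793 (12007) and ZNF333 (11611), had log2 fold changes of -0.03, -0.47 and -0.37. The shortest, ZNF524 (1360), ZNF556 (1646) and ZNF581 (1736), had -0.15, -0.37 and -0.06. None of the 6 passed the test, with adjusted p from 0.189 to 0.887, and ZNF333 alone had groups that did not overlap, at 10.3, 6.54 and 6.82 CPM with GST against 6.42, 5.97 and 5.86 CPM.

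**Figure D5:**
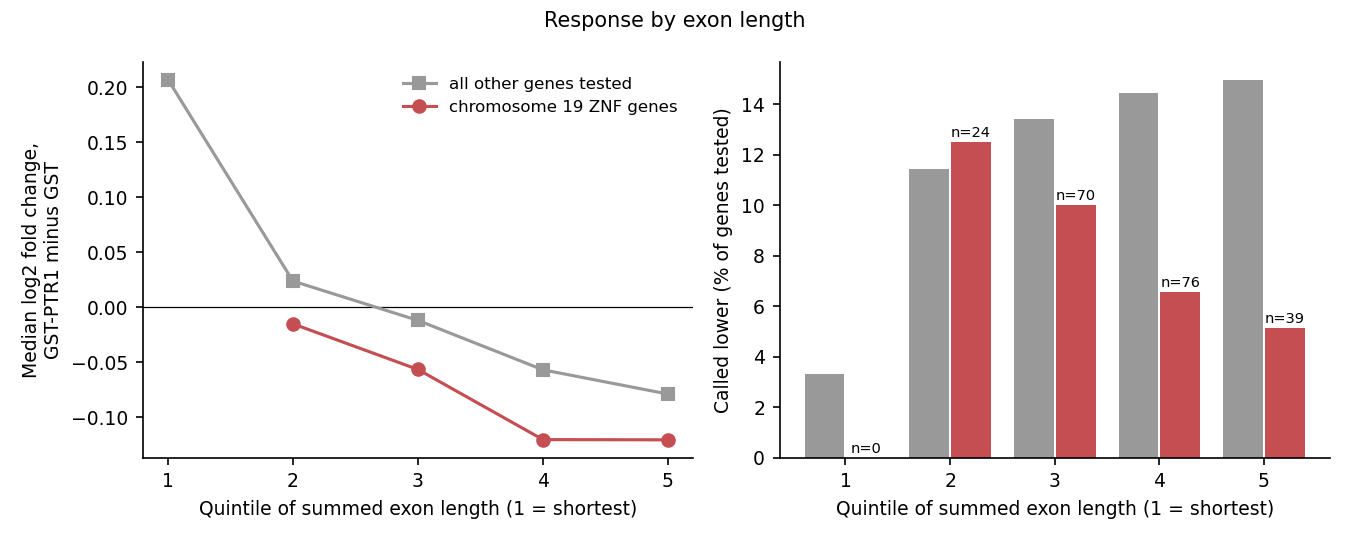
Left, the median log2 fold change with GST-PTR1 in quintiles of summed exon length for the chromosome 19 ZNF genes (red circles) and all other genes tested (grey squares). Right, the share of each called lower, with the number of tested members above each red bar. The member medians run from -0.02 to -0.12 and lie below the others in each of quintiles 2 to 5, and the members' share called lower, which rests on 2 to 7 members a quintile, runs from 12.5% to 5.13%.

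The number of C2H2 fingers, counted in the longest reading frame of each gene's transcripts, had a median of 12 over the members not called, 13 over those called lower and 10.5 over those called higher. In terciles of finger number the median response was -0.06, -0.08 and -0.19 on the log2 scale, and 7, 3 and 7 members were called lower. ZNF729, with 39 fingers the largest array among the called members, was at -0.67, and ZNF738, in whose longest frame no finger was found, was at -0.49. Spearman's rho with finger number was -0.11. ZNF253, ZNF506, ZNF101 and ZNF93 had 11, 8, 10 and 16 fingers.

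A list of KRAB zinc finger cofactors and factors of silenced chromatin (heterochromatin) gave a single call. Of the 18 genes listed 17 were tested, 1 was called higher (background 9.15%) and none lower (background 11.4%). UHRF1 was not matched to a counted gene by its symbol and so was not tested. The median was 0.01 with a range of -0.26 to 0.58. TRIM28 was at 571, 480 and 554 CPM with GST and 584, 556 and 514 CPM with GST-PTR1. The groups overlapped, with a log2 fold change of 0.04 (SE 0.11, adjusted p = 0.817). SETDB1 was at 67.6, 61.2 and 61.3 CPM with GST and 62.5, 69.4 and 64.3 CPM with GST-PTR1, also overlapping, with 0.05 (SE 0.10, adjusted p = 0.769). The listed gene called was TRIM24, a bromodomain protein related to TRIM28. It was at 37.99, 38.1 and 38.8 CPM with GST and 56.6, 59.5 and 55.8 CPM with GST-PTR1, separated completely, with a log2 fold change of 0.58 (SE 0.10, adjusted p = 0.00167).

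Exon overlap limited some counts. On their own strand 73 members, 62 of them tested, share exon bases with another gene, and reads there were not counted. The 147 tested members without such overlap had a median of -0.10, with 2 higher and 13 lower. The 2 higher members with overlap were ZNF506 and ZNF93, for which it was 1.38% and 1.47% of exon bases. Because these genes are duplicates of one another, reads that map to several of them were also left out, and levels of members with near-identical copies are uncertain.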

How the data were processed

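The deposited file held raw counts per gene for the 6 libraries. Per the file headers and the labels, the authors counted reads with featureCounts 1.5.0-p1 (Subread) over exons of Ensembl release 75 (GRCh37, hg19), reverse-stranded, without multi-mapped or multi-overlapping reads; FastQC and limma are also named. The aligner is not given in the sources used here. Libraries came from a strand-specific mRNA kit. Columns could be tied to treatment but not to a replicate number.

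Counts were tested with edgeR 4.0.16 (R 4.3.3; TMM, filterByExpr, quasi-likelihood, Benjamini-Hochberg over 16926 genes), after a check on simulated data. DESeq2 1.42.0 and limma 3.58.1 voom were alternatives. Standard errors are of the log2 fold change. p-values judge the difference between GST-PTR1 and GST against the spread between these replicates, estimated with information shared across genes. No 2 libraries of the same treatment agreed within sampling noise when scaled by library totals. GC and finger counts came from GENCODE release 29 transcripts (finger pattern: cysteines 2 to 4 residues apart, 12 residues, histidines 3 to 5 apart), symbols and promoters from the reference tables.

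Genes named were the 12 lower and 12 higher (4 existed) members with the smallest adjusted p, the 5 highest per kb, and the 3 longest and 3 shortest. From the list of cofactors and heterochromatin factors, those called were named, with TRIM28 and SETDB1. Other genes are named for their position in the stretch or its cluster, or as plasma cell markers whose groups did not overlap, after their values were seen. The members and lists were chosen with earlier results of these data known. The erythroid marker list is not reported here.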

Additional observations from a re-analysis of the deposited data

How the results depend on the processing

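With library totals in place of TMM, 2 members were called higher and 43 lower, the median was -0.30, the summed level differed by -9.89% between GST-PTR1 and GST in place of 3.15%, and ZNF14 was at -0.16, TRIM28 at -0.15 and SETDB1 at -0.15. With at least 1 count in any library as the filter, 7 members were higher in 3 clusters, the length trend (Spearman's rho, -0.15 with TMM and filterByExpr) was -0.080 and ZNF121 was at 0.0063. Removing the exon length trend gave 7 higher in 4 clusters, a length rho of -0.053 and ZNF814 at 0.019. Removing the GC trend, chosen after seeing the data, gave 7 higher in 4 clusters and 26 lower, a median of -0.16, a length rho of -0.22, and ZNF581 at 0.027, ZNF524 at 0.015 and ZNF14 at -0.038. Members called higher lay in 2 clusters with DESeq2 size factors and in 3 with the DESeq2 test, where ZNF614 was added by both and ZNF567 by the test. Leaving out members with shared exon bases gave 2 higher. Span in place of exon length gave a rho of -0.022. Cluster gaps of 0.5 or 2 Mb left the higher members in 1 cluster. Leaving out 1 library at a time gave 3 to 6 members higher in 1 to 2 clusters (background 6.09% to 8.82%), 6 to 13 lower, a median of -0.14 to -0.048, a length rho of -0.18 to -0.088, ZNF121 at -0.087 to 0.086, ZNF814 at -0.13 to 0.072, ZNF14 at -0.056 to 0.15 and TRIM28 at -0.027 to 0.11. The cause of these changes was not tested, apart from the fewer libraries or genes of some fits. The median stayed negative in all alternatives run. Counts of 3 to 19 per library limit ZNF358 and ZNF699.

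The replicate numbers of the labels could not be matched to the count columns. The 4 libraries whose column numbers occur in both groups were fitted with that number as a replicate block, chosen after seeing the data, which gave 3 members higher, 11 lower, a median of -0.09 and a length rho of -0.11, with ZNF101 not called. Of those 11 lower members 8 were among the 17 called with all libraries, and the calls of ZNF211, ZNF382, ZNF575, ZNF599, ZNF699, ZNF726, ZNF729, ZNF738 and ZNF836 were lost. The same 4 libraries with no replicate block gave 6 higher in 2 clusters, 12 lower and a length rho of -0.11. Deviations from the group means of same-numbered libraries correlated at 0.25 and -0.03, so the number is not taken as a pairing.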
